A study of Mus musculus with 4 samples.

Results

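Cytosolic ribosomal protein genes were followed across cell types and libraries of mouse pancreatic islet cells. The members were taken by symbol: Rpl or Rps followed by a number, with the paralogs that carry an a, x, y or l, plus Rplp0, Rplp1, Rplp2 and Rpsa, leaving out symbols with -ps and the S6 kinases. The rule gave 83 of 32227 genes, 51 of the large and 32 of the small subunit. At least 1 UMI (unique molecular identifier, a counted mRNA molecule) was present for 81 of them, 49 large and 32 small.

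Islets of adult Myt3 mutant and control mice were dissociated and live cells were sequenced as single-cell RNA libraries, with 2 libraries per genotype. The mutant mice were homozygous for Myt3 IM, a CRISPR-Cas9 insertion within an upstream reading frame of Myt3; the allele is present in all cells. The study names C57Bl/6j as the backcross strain in its results and CBA/BL6j in its methods. The labels call the other mice only controls, and per the methods they were wild type from crosses between heterozygotes. Per the labels the mice ate normal diet and the method was PIPseq, whereas the methods of the study give high-fat feeding and inDrop, with islets of males and females pooled in each sample; both are kept here, since the files cannot settle them. Gene counts were taken from mutant 1, mutant 2 and control 2; expression in control 1, which enters only with its list of 2417 barcodes, was not analysed here. The question of the comparison was how gene expression in beta cells differs between the genotypes.

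With 1 control library, no difference between genotypes could be tested. The batch label of control 2 differs from that of both mutant libraries, so genotype, library and batch label cannot be told apart. Control 2 also stood apart in depth: its kept cells had a median of 14051 UMIs, against 2427 in mutant 1 and 3852 in mutant 2. The libraries held 2940, 2040 and 2283 kept cells for mutant 1, mutant 2 and control 2, and shared 0 barcodes. Myt3 itself, listed as St18, had 177, 162 and 200 UMIs in beta cells thinned to equal depth, 89.7, 106 and 113 CPM (counts scaled to a common library size). An insertion in the gene would not show in such counts, so they do not check the labels.

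Ribosomal proteins assemble with ribosomal RNA into a small subunit, which reads the mRNA, and a large subunit, which joins amino acids. Their mRNAs are short, abundant in growing cells and usually carry a 5′ terminal oligopyrimidine tract, through which mTOR signalling sets their translation. In beta cells much of the mRNA pool encodes insulin, so the share left for other mRNAs is lower than in most cells. Ribosomal protein genes also have many processed pseudogenes, near-identical copies that can take reads from the parent gene.

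The start sites of the mRNAs are shown because the tract lies there. RefSeq promoters (GRCm38.p6, 300 bases each) were matched for 63 of the members, 75 promoters in all. At 13 of these 75 (17.3%) the annotated start base was C followed by 4 bases of C or T, against 2.51% of all 32851 promoters. Starts were taken from the annotation and not measured in these cells. An unbroken run of at least 6 C or T bases came within 5 bases of the start in 44% of the members' promoters and in 21.0% of all. The ETS-type motif CCGGAAG, sought on both strands, was in 36% of the members' promoters against 8.86% of all, and the YY1-type motif AAGATGGC in 10.7% against 2.75%. TATAAA was in 9.33% against 13.6%. Below are 8 windows of 30 bases, 15 before the start and 15 from it on, with the longest C or T run that reaches within 5 bases of the start in capitals. They belong to Rps18 (chr17:33955651-33955680, minus strand), Rpl9 (chr5:65391417-65391446, minus), Rpl39 (chrX:37085208-37085237, minus), Rpl4 (chr9:64173372-64173401, plus), Rps24 (chr14:24490663-24490692, plus), Rpl22l1 (chr3:28805493-28805522, plus), Rplp2 (chr7:141447636-141447665, plus) and Rps27 (chr3:90213634-90213663, minus). The first 3 genes were among the lowest and the next 3 among the highest in the mutant libraries relative to control 2, as described further on.
Rps18: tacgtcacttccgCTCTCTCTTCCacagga
Rpl9: acgcagggCCCTgacggattacaagaacgt
Rpl39: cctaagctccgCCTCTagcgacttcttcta
Rpl4: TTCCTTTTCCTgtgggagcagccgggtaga
Rps24: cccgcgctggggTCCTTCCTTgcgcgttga
Rpl22l1: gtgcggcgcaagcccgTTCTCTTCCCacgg
Rplp2: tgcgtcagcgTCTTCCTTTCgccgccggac
Rps27: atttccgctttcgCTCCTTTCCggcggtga
Runs of 9 or more bases stood at Rps18, Rpl4, Rps24, Rpl22l1, Rplp2 and Rps27, and short ones at Rpl9 and Rpl39. Among the low genes shown only Rps18 thus had a long run, and among the high genes Rpl4, Rps24 and Rpl22l1 had one. Other low (Rpl23a, Rpl21) and high (Rpl32, Rps20) genes had no matched promoter. Over 60 members with a promoter, Spearman's rho between the longest run and the mean log2 ratio to control 2 was -0.07. The run of Rpl4 is 14 bases long, begins before the window and ends before the marked start, as does that of Rpl9. Rps24 has a further RefSeq start that is not shown.

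Cells were classed by the share of their UMIs that came from hormone genes. Beta cells had at least 20% insulin (Ins1 and Ins2) and under 5% of each other hormone, and alpha cells had at least 10% Gcg, the glucagon gene, as their leading hormone. Mutant 1, mutant 2 and control 2 held 2165, 1512 and 2003 beta cells and 271, 203 and 33 alpha cells. Delta cells, which make somatostatin, numbered only 3, 4 and 18 when Sst had to reach 10%. A wider rule, added after that count was seen, took cells with at least 3% Sst above Gcg and Ppy and with under 10% insulin. It gave 67, 63 and 37 cells, called Sst-led here, although Sst did not have to exceed insulin. Sst made up 5.34%, 6.27% and 10.9% of their UMIs, and their median insulin share was 4.76%, 4.65% and 4.64%. Non-endocrine cells, with hormones under 20% and more UMIs of endothelial, stromal, leukocyte or duct markers than of endocrine ones, numbered 41, 40 and 61.

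Markers that the rules did not use were higher in alpha and Sst-led cells than in beta cells; for non-endocrine cells the rule itself used the marker lists. Alpha markers other than Gcg summed to 9853, 12092 and 12364 CPM in alpha cells of mutant 1, mutant 2 and control 2, against 709, 806 and 2139 CPM in beta cells. Delta markers other than Sst summed to 861, 951 and 1566 CPM in Sst-led cells, against 47.7, 54.7 and 147 CPM in beta cells. Beta markers other than insulin were also present in Sst-led cells, at 38849, 32282 and 17922 CPM, above the 14667, 11784 and 6903 CPM of alpha cells. The part of mixed or doublet cells in the Sst-led values was not tested, and no doublet caller was run. Insulin made up a median of 3.40% to 4.76% of UMIs in alpha, Sst-led and non-endocrine cells, and whether this was free mRNA was not tested.

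Ribosomal protein mRNA took the smallest share of UMIs in beta cells, in all 3 libraries. When each cell was thinned to 1000 UMIs, the members made up 1.75% of UMIs in beta cells of mutant 1 (95% exact binomial interval 1.73 to 1.77), 1.78% in mutant 2 (1.76 to 1.80) and 2.51% in control 2 (2.49 to 2.53). In alpha cells the share was 4.93% in mutant 1 (4.85 to 5.02), 5.01% in mutant 2 (4.91 to 5.11) and 6.90% in control 2 (6.63 to 7.18). Sst-led cells held 4.45% (4.28 to 4.64), 4.21% (4.05 to 4.37) and 5.47% (5.24 to 5.70), in the same order. Non-endocrine cells held 5.40% (5.13 to 5.67), 5.02% (4.80 to 5.23) and 5.49% (5.31 to 5.68). These intervals cover counting error only. Control 2 was above both mutant libraries in beta, alpha and Sst-led cells, and its interval overlapped that of mutant 1 in non-endocrine cells.

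The spread of single cells was wide, and the middle 50% of beta and of alpha cells did not overlap within a library. The middle 50% of beta cells had 1.4% to 2.0% of their 1000 UMIs from members in mutant 1, 1.4% to 2.1% in mutant 2 and 1.9% to 2.9% in control 2. The middle 50% of alpha cells ran from 4.0% to 5.8%, from 4.2% to 5.8% and from 5.5% to 7.8%. A median beta cell showed 13, 14 and 20 different members among its 1000 UMIs, and a median alpha cell 28, 30 and 40.

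Hormone mRNA filled a different part of the denominator in each class. Hormones took 41.9%, 44.2% and 57.3% of beta-cell UMIs but 24.2%, 25.5% and 27.1% of alpha-cell UMIs. Outside hormone and mitochondrial genes the members made up 3.00%, 3.13% and 5.55% of beta-cell UMIs in mutant 1, mutant 2 and control 2, and 6.59%, 6.81% and 9.47% of alpha-cell UMIs. The corresponding shares were 5.05%, 4.84% and 6.71% in Sst-led cells and 5.65%, 5.30% and 5.84% in non-endocrine cells. On this denominator non-endocrine cells stood well above beta cells in both mutant libraries, whereas in control 2 the shares of the 2 classes lay close together. Thinning did not match the original depth of the classes, which in control 2 had medians of 16249 UMIs in beta and 4899 in non-endocrine cells. In control 2 cells of 3000 to 6000 UMIs the shares were apart, at 4.25% in beta and 6.29% in non-endocrine cells. The non-endocrine cells were not alike: at 1000 UMIs per cell, cells led by leukocyte markers held 7.27% (6 cells), 6.96% (13 cells) and 7.90% (12 cells) of all UMIs. Cells led by endothelial markers held 4.59% (18 cells), 4.12% (24 cells) and 4.92% (34 cells). Their mix also differed between libraries: leukocyte markers summed to 13062, 16494 and 5936 CPM and stromal markers to 1383, 1339 and 4113 CPM in non-endocrine cells.

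**Figure D1:**
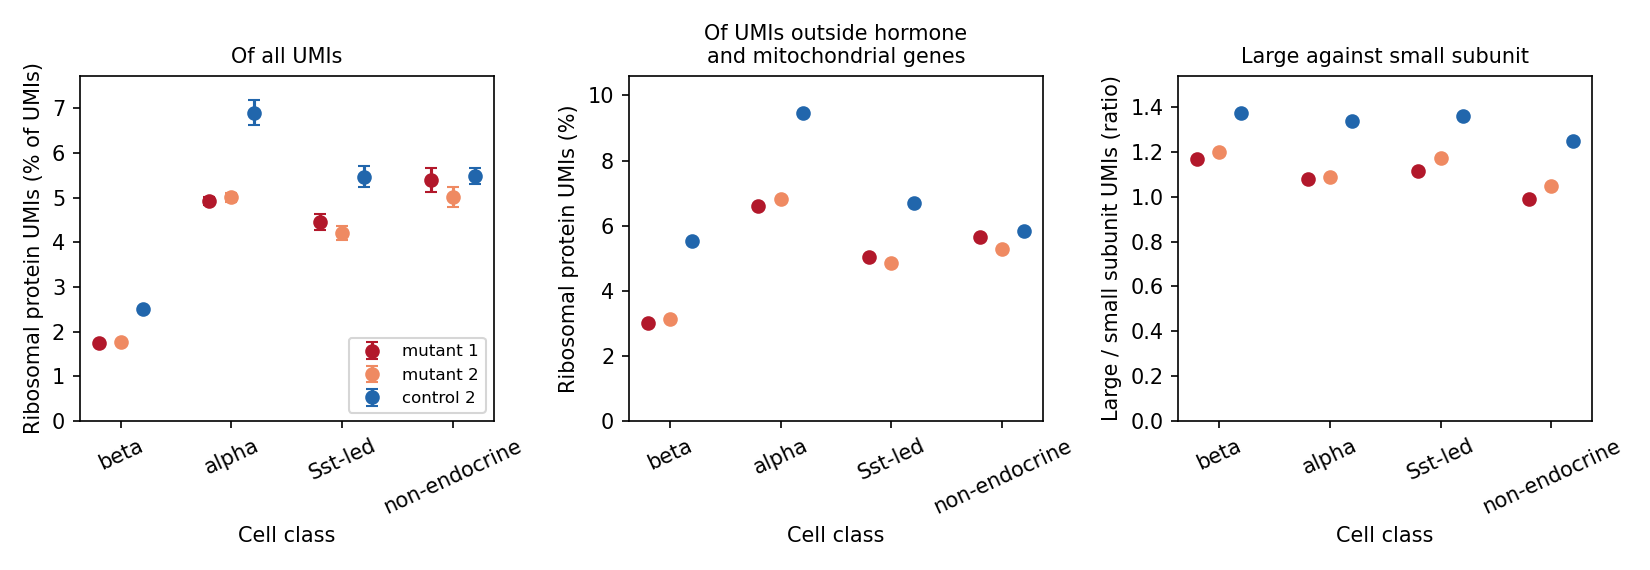
Share of UMIs from cytosolic ribosomal protein genes (left, % of all UMIs, bars are 95% exact binomial intervals; middle, % of UMIs outside hormone and mitochondrial genes) and the ratio of large to small subunit UMIs (right), by cell class, in cells thinned to 1000 UMIs. Each point is 1 library; beta cells lie lowest on the left, at 1.75% to 2.51%, and control 2 lies above both mutant libraries in each class on the right.

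The share of all UMIs changed with the depth of a cell, but by less than the share outside hormone and mitochondrial genes. In beta cells of mutant 1 it was 1.57% in cells of 500 to 1000 UMIs and 1.88% in cells of 6000 to 12000, and in mutant 2 it was 1.57% and 1.83% in the same bins. In control 2 it was 2.26% in cells of 2000 to 3000 UMIs, 2.23% from 3000 to 6000, 2.60% from 12000 to 24000 and 2.50% in cells of 24000 or more. Outside hormone and mitochondrial genes the share rose with depth, from 2.40% to 3.45% in mutant 1 and from 2.36% to 3.48% in mutant 2 between the same bins, and from 4.25% at 3000 to 6000 UMIs to 6.58% at 24000 or more in control 2. In the window of 3000 to 6000 UMIs, which all 3 libraries filled, beta cells held 1.79% in mutant 1 (823 cells), 1.82% in mutant 2 (622 cells) and 2.23% in control 2 (270 cells). The gap between the libraries was thus smaller in that window, where control 2 is represented by its shallow beta cells.

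**Figure D2:**
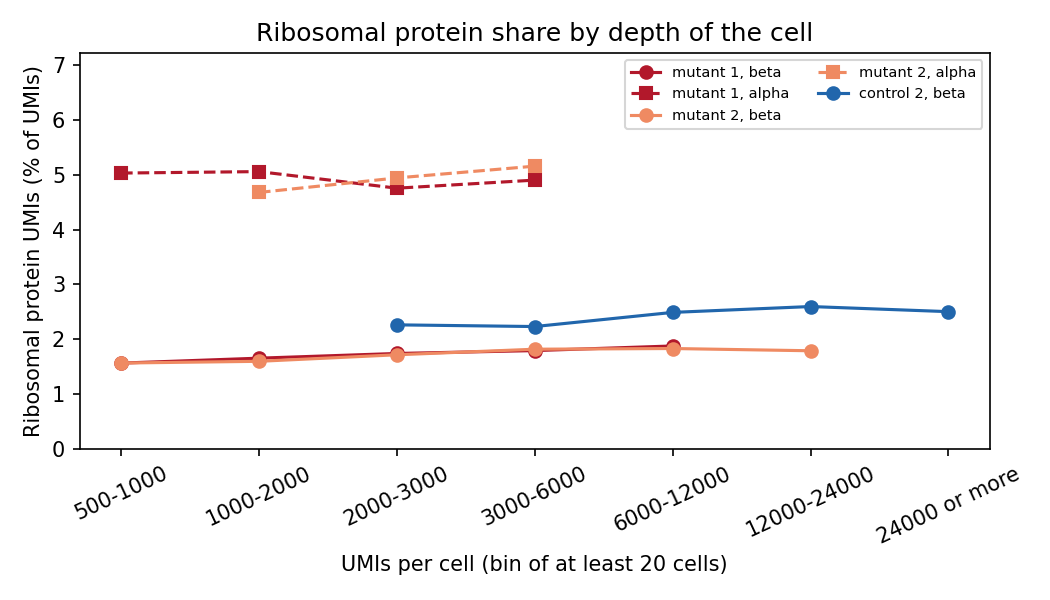
Share of UMIs (%) from cytosolic ribosomal protein genes against UMIs per cell, in bins with at least 20 cells, for beta cells (circles) of each library and alpha cells (squares) of the mutant libraries, control 2 having no alpha bin of that size. The beta-cell lines run from 1.57% to 1.88% in mutant 1, 1.57% to 1.83% in mutant 2 and 2.23% to 2.60% in control 2. That of control 2 runs above those of the mutant libraries in each shared bin, for example at 2.23% against 1.79% and 1.82% from 3000 to 6000 UMIs.

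Large subunit mRNAs outnumbered small subunit mRNAs more in control 2 than in the mutant libraries. The ratio of their UMIs was 1.17, 1.20 and 1.37 in beta cells of mutant 1, mutant 2 and control 2. It was 1.08, 1.09 and 1.34 in alpha cells, 1.11, 1.17 and 1.36 in Sst-led cells, and 0.988, 1.05 and 1.25 in non-endocrine cells. Control 2 was the highest library in each of the 4 classes.

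Gene by gene, most members were lower in beta cells of both mutant libraries than in control 2, and the sizes differed widely. Ratios were taken on sums of beta cells thinned to 1000 UMIs, scaled by TMM (trimmed mean of M values), as log2 ratios with a prior count of 1. Of the 83 members 80 reached a mean of 20 CPM; the other 3, Rpl3l, Rpl10l and Rpl39l, had 0 UMIs in these cells, and Rpl29 stood just inside at 20.8 CPM. Among the 80, 58 were below -0.5 in both mutant libraries and 0 were above 0.5 in both, beside 21.3% of all 4897 genes below and 21.3% above. Below 0 in both were 71 members, and above 0 in both were 7: Rps15, Rps24, Rps10, Rpl22l1, Rps20, Rpl32 and Rpl4. The members' median ratio came to -1.36 for mutant 1 and -1.21 for mutant 2, where the medians of all genes were 0.05 and 0.01. The mutant libraries lay close to each other: 72 of the 80 differed by at most 0.5 between them, and the middle 50% of that difference ran from -0.24 to 0.12.

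The lowest members of at least 50 CPM were Rpl23a, Rps18, Rpl9, Rpl21 and Rpl39. Rpl23a, a large subunit protein at the exit of the peptide tunnel, was counted 24 and 19 times in mutant 1 and mutant 2 and 251 times in control 2. These were 12.2, 12.4 and 142 CPM (exact Poisson intervals 7.8 to 18.1, 7.5 to 19.4 and 125 to 161), log2 ratios of -3.49 and -3.46. Rps18, of the small subunit head, had 13.7, 18.3 and 159 CPM, with log2 ratios of -3.48 and -3.07. Both mutant values lay far under the control value for each gene. Rpl9 had 13.7, 19.7 and 168 CPM (log2 ratios -3.57 and -3.06), Rpl21 had 23.3, 29.5 and 207 CPM (-3.12 and -2.79), and Rpl39 had 10.1, 17.7 and 125 CPM (-3.55 and -2.78). Over all members the lowest ratios were those of Rpl29, with 4, 5 and 101 UMIs and log2 ratios of -4.48 and -3.91.

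The highest were Rpl32, Rps24, Rpl22l1, Rpl4 and Rps20. Rpl32 of the large subunit had 1810, 1362 and 1132 UMIs, which were 918, 892 and 641 CPM, with log2 ratios of 0.52 and 0.48. Rps24, a small subunit gene mutated in some patients with Diamond-Blackfan anaemia, had 887, 824 and 708 CPM (0.33 and 0.22). Rpl4 had 979, 944 and 909 CPM (0.11 and 0.05), and Rps20 had 554, 485 and 475 CPM (0.22 and 0.03). Rpl22l1, the paralog that can replace Rpl22, had 64.9, 56.3 and 49.3 CPM (0.39 and 0.19). For Rpl4, Rps20 and Rpl22l1 the counting intervals of mutant 2 and control 2 overlapped. Without thinning, the ratios of Rps24, Rpl22l1, Rpl4 and Rps20 were all below 0, at -0.03 and -0.09 for Rps24, with the medians of all genes at -0.19 and -0.22, so their direction changed with the depth used.

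**Figure D3:**
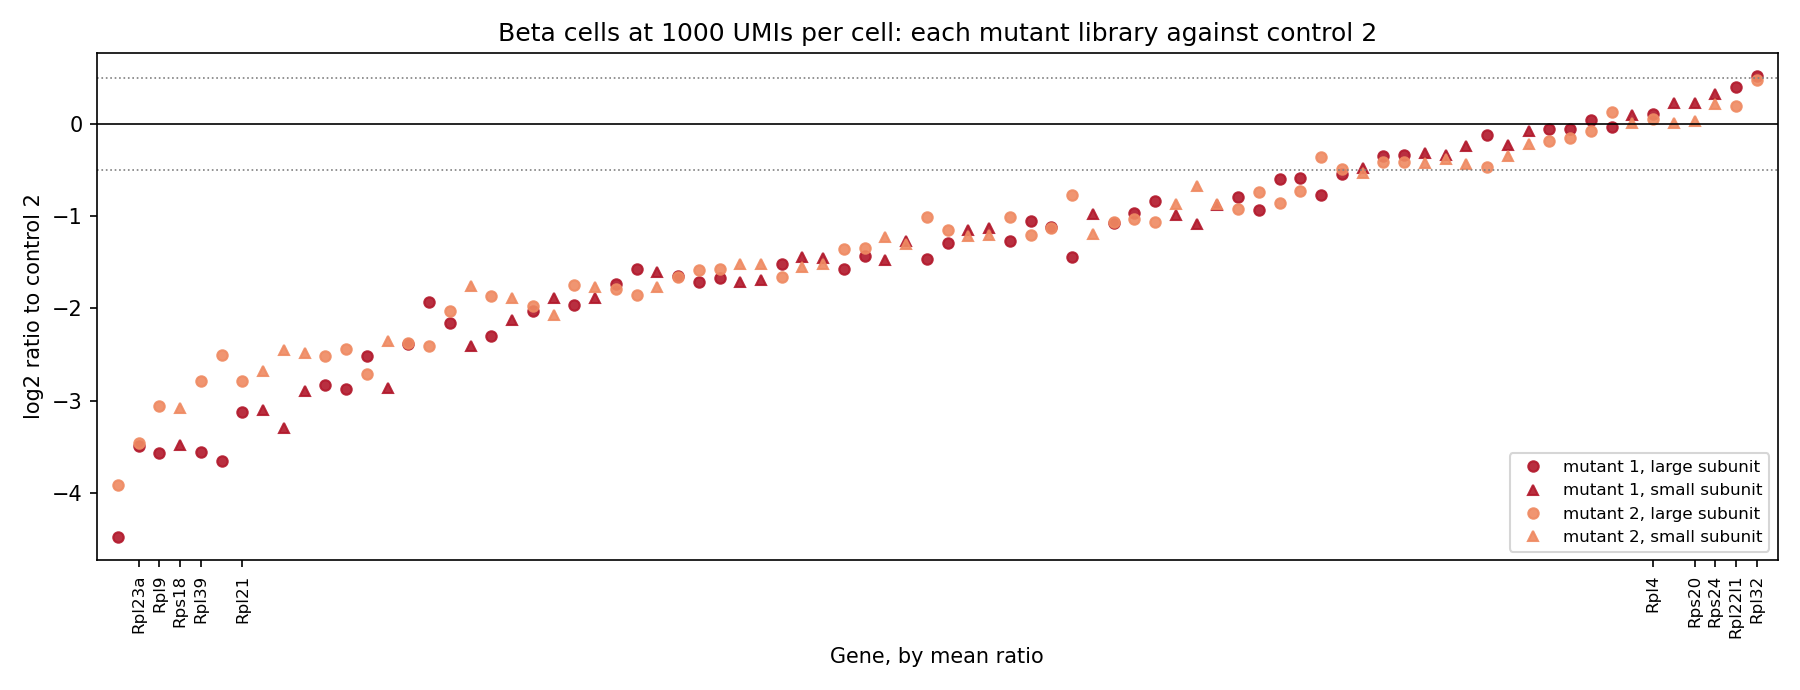
Log2 ratio of each mutant library to control 2 in beta cells thinned to 1000 UMIs, for the 80 members of at least 20 mean CPM, ordered by mean ratio, with 10 genes named on the axis; circles are large and triangles small subunit genes, dotted lines mark 0.5 in either direction. The ratios run from -4.48 for Rpl29 to 0.52 for Rpl32, the points of the mutant libraries lie near each other, and large and small subunit genes are mixed along it.

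The ratios of the subunits were mixed. Below -0.5 in both mutant libraries were 36 of 48 large subunit genes, with medians of -1.44 and -1.18, and 22 of 32 small subunit genes, with medians of -1.21 and -1.22. The large subunit was lower in mutant 1 and level with the small subunit in mutant 2, and the difference of the mean ratios' medians, -0.09, turned to 0.04 when mutant 1 was left out. Rpl41 of the large subunit, the highest member in control 2 and the shortest in coding sequence at 75 nucleotides, had 725, 726 and 1523 CPM, log2 ratios of -1.07 and -1.07.

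The P-stalk, a flexible arm of the large subunit that recruits elongation factors, was lower throughout. Rplp0 had 164, 176 and 522 CPM (log2 ratios -1.67 and -1.57), Rplp1 had 219, 210 and 727 CPM (-1.73 and -1.79), and Rplp2 had 42.6, 46.5 and 192 CPM (-2.16 and -2.03). All 3 had mutant counting intervals that did not reach those of control 2. Rpl5 and Rpl11, which with 5S RNA bind Mdm2 when ribosome assembly fails, had 74.5, 77.3 and 305 CPM (-2.03 and -1.97) and 124, 136 and 303 CPM (-1.29 and -1.15). Rps6, the substrate of S6 kinase, had 59.8, 67.5 and 194 CPM (-1.69 and -1.52), and Rps27a, which is made as a fusion with ubiquitin, had 295, 279 and 645 CPM (-1.13 and -1.21). Rpsa, which also serves as a laminin receptor, was nearly level at 755, 687 and 798 CPM (-0.08 and -0.22).

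Some paralogs parted from each other. Rpl22 had 35.0, 46.5 and 60.1 CPM (log2 ratios -0.77 and -0.36), against the positive ratios of Rpl22l1. Rpl7 had 31.4, 33.4 and 86.1 CPM (-1.44 and -1.35), while Rpl7l1 was level at 30.4, 34.1 and 31.2 CPM (-0.03 and 0.13). Rps27 and Rps27l were both lower, at 138, 128 and 376 CPM (-1.44 and -1.55) and at 15.2, 24.2 and 83.3 CPM (-2.41 and -1.76). On the X chromosome Rpl10 had 49.2, 61.6 and 354 CPM (-2.83 and -2.51) but Rps4x only -0.24 and -0.44.

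Sequence shared with other genes was common among the members. In GENCODE vM21, 79 of the 80 had at least 1 run of 50 bases within their last 300 coding bases that also occurs in a transcript of another gene, and in 39 every such run did. The median member shared such runs with 8 other genes. It was 11 for the 5 lowest and 4 for the 5 highest named above, Rpl21 with 66 genes and Rpl4 with 1. Across the 80 genes Spearman's rho with the mean ratio was -0.32 for the number of sharing genes but -0.06 for the percentage of runs shared. It was -0.01 for coding length and 0.48 for the level in control 2. These are descriptions over genes that share libraries and are not independent. Members were searched only in coding sequence, and whether reads of a gene were counted for its near-identical copies was not tested. How reads with several matches were counted is not given in the sources used here.

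Copies left out of the rule moved in both directions. Rpl10-ps3 had 107, 95 and 607 UMIs (log2 ratios -2.65 and -2.46) and Rpl9-ps6 had 35, 31 and 111 (-1.79 and -1.60), so both were low along with Rpl10 and Rpl9. Rpl36a-ps1 had 119, 93 and 78 UMIs (0.44 and 0.46).

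The lower members were seen in other cell classes too, with smaller medians in thinned cells. In alpha cells 28 of 80 members were below -0.5 in both mutant libraries and 8 were above 0.5, beside 13.7% of all genes below and 37.6% above. In Sst-led cells 36 of 79 were below and 6 above, beside 15.8% and 24.8%. In non-endocrine cells 35 of 80 were below and 2 above, beside 20.6% and 10.6%. From all UMIs, without thinning, 46 of 80 members were below in alpha cells, 48 in Sst-led cells and 34 in non-endocrine cells, beside 13.0%, 17.9% and 18.8% of all genes. Relative to the median of all genes in the same class, the members' medians were -0.68 and -0.65 in alpha cells, -0.70 and -0.50 in Sst-led cells and -0.29 and -0.35 in non-endocrine cells, against -1.42 and -1.22 in beta cells. Rpl23a was low in each class: its log2 ratios were -2.46 and -1.96 in alpha cells and -1.59 and -1.24 in non-endocrine cells.

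Rpl3, which lines the peptidyl transferase centre, had ratios of opposite sign in thinned beta and alpha cells. It had 416, 275 and 665 UMIs in beta cells (log2 ratios -0.84 and -1.06) and 207, 147 and 14 UMIs in the fewer alpha cells (1.47 and 1.27). The medians of all genes in thinned alpha cells were 0.33 and 0.39. From all UMIs, without thinning, the highest alpha-cell ratios of any member were 0.73 and 0.68, so the size for Rpl3 depended on thinning.

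Restricting beta cells to 3000 to 6000 UMIs left 39 of 79 members below -0.5 in both libraries and 5 above 0.5, beside 15.2% of all genes below and 28.8% above, with medians of -0.58 and -0.54, or -0.76 and -0.72 relative to all genes. Rpl23a, at -3.24 and -3.32, and Rps18, at -2.52 and -2.44, were low there as well, whereas Rpl32, at 0.88 and 0.89, and Rps24, at 1.02 and 0.84, were higher. With CPM of all UMIs in place of TMM, 52 of 79 were below and 2 above, beside 12.6% and 34.2%.

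Other translation genes moved in both directions in beta cells. Of 12 elongation factors and other mRNAs known for the terminal tract, 6 were below -0.5 in both mutant libraries and 3 above 0.5, beside 21.3% of all genes in each direction. Eef1a1, which delivers tRNA, was at -1.10 and -1.13, Npm1 at -2.17 and -2.02, and Eef2, which moves the ribosome along, at 1.29 and 0.93. Of 28 initiation factors 10 were below and 2 above, with Eif5a at -2.01 and -1.85. Ribosome biogenesis genes counted 4 below and 3 above of 13, and mitochondrial ribosomal proteins 6 below and 3 above of 28. Among ribosomal proteins with other names, Rpl36al was at -2.64 and -2.58, Fau at -0.80 and -0.98, and Rack1 at 0.61 and 0.33.

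Alpha cells had higher ribosomal protein mRNA than beta cells of the same libraries. Sums of raw counts per library and class were tested in edgeR with the library as a block, which compares classes within libraries, and p-values were adjusted over all genes. In alpha cells 56 of 80 members were higher and 0 lower, beside 12.6% of 6432 genes higher and 12.9% lower, and the median log2 fold change was 0.93. An unadjusted p under 0.05 was reached by 70 of the 80, beside 2318 of the 6432 genes. DESeq2 called 60 higher and 0 lower, beside 10.8% and 8.71% of all genes. The library medians were 0.98 in mutant 1, 1.06 in mutant 2 and 0.70 in control 2, and 76 members were above 0 in all 3. When beta cells were drawn to the depth of the alpha cells in each library, 74 of 80 were higher and 0 lower, beside 13.4% of all genes, with a median of 1.07. With every cell thinned to 1000 UMIs, 60 of 72 were higher, beside 20.6%. Both subunits took part, with 35 of 48 large and 21 of 32 small subunit genes higher and medians of 0.92 and 0.95.

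The largest rises in alpha cells were those of Rpl23a, Rpl9, Rpl35a, Rpl27a and Rps9. Rpl23a was higher by 1.58, 2.11 and 1.34 on the log2 scale in mutant 1, mutant 2 and control 2, a fitted change of 1.65 ± 0.28 (SE, 3 libraries; edgeR adjusted p = 5.4e-08). Rpl9 rose by 1.60, 1.89 and 1.31 (fitted 1.58 ± 0.27, edgeR adjusted p = 1.8e-07). The 3 libraries pointed the same way for both genes. Rpl35a, Rpl27a and Rps9 had fitted changes of 1.53, 1.42 and 1.35. Among the smallest that passed were Rpl10 at 0.70, Rpl39 at 0.70, Rpl6 at 0.71 and Rpl28 at 0.75. Rplp1 and Rplp2 of the P-stalk rose by 0.96 and 1.29, whereas Rplp0 did not pass, at 0.57. Rpl5, Rpl11 and Rps27a rose by 0.93, 0.83 and 1.02. Rps6 (0.51), Rpsa (0.61), Rpl4 (0.23), Rpl41 (0.24), Rps27l (0.04) and Rpl7l1 (-0.08) did not pass. Against beta cells drawn to the same depth Rplp0 passed at 0.76 (edgeR adjusted p = 0.0055), as did Rps6 at 0.78 (0.0016) and Rpsa at 0.71 (0.00185).

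The number of members called in alpha cells varied with the fit. Without the library block 0 of 80 were called, beside 4.14% of all genes higher. In that fit 30 of the 80 had an unadjusted p under 0.05, beside 1428 of all 6432 genes. Leaving out a library gave 19 calls without mutant 1, 6 without mutant 2 and 77 of 78 without control 2. The shares of all genes called higher were then 5.78%, 4.11% and 20.3%. The medians of these fits lay between 0.85 and 1.08.

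Among other translation genes in alpha cells, 5 of the 12 elongation and terminal-tract mRNAs were higher and 1 lower, beside 12.6% and 12.9% of all genes, with Npm1 at 1.33 and Eef1b2 at 1.08. Of 28 initiation factors 2 were higher and 1 lower, and of 37 mitochondrial ribosomal proteins 0 were higher and 5 lower, with Mrps34 at -1.11. At an unadjusted p under 0.05, 6 of the 37 passed, beside 2318 of all 6432 genes. Fau rose by 0.85.

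Sst-led cells differed from beta cells by less. Of 80 members 15 were higher and 1 lower, beside 8.68% of 6672 genes higher and 10% lower, with a median of 0.27. Library medians were 0.43, 0.40 and 0.04, and 37 members were above 0 in all 3. Against beta cells of the same depth 33 of 78 were higher, beside 10.4%, with a median of 0.53. Rpl23a (1.07 ± 0.28, SE, edgeR adjusted p = 0.0074), Rpl35a (0.87), Rpl9 (0.83), Rps9 (0.76) and Rpl26 (0.71) led. Rps27l, a paralog of Rps27 that p53 induces, was lower by 1.81, 1.63 and 1.61 on the log2 scale in the libraries (fitted -1.66 ± 0.37, edgeR adjusted p = 0.0017). It had only 1, 0 and 1 UMIs in thinned cells and was too low to be tested in the thinned and depth-matched fits, where no member was lower. With library sizes of all UMIs it stood at -0.65 and did not pass. Under the 10% rule for Sst, 1 of 80 was higher, beside 2.16% of all genes. DESeq2 called 9 higher, beside 9.4% of all genes. Without mutant 1, mutant 2 or control 2 edgeR called 1, 0 and 34, beside 5.42%, 5.01% and 8.69%.

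In non-endocrine cells 27 of 80 members were higher and 1 was lower, beside 26.7% of all genes higher and 25.3% lower. The members' median was 0.58, and that of all genes -0.03. Library medians were 0.89, 0.87 and 0.12, and 46 members were above 0 in all 3. Against beta cells of the same depth 34 of 80 were higher, beside 25.1%, and with all cells thinned 48 of 72, beside 42.5%. Rpl35a rose by 2.08, 1.97 and 0.52 in the libraries (fitted 1.30 ± 0.32, SE, edgeR adjusted p = 0.00018). Rps16 rose by 1.16. Rps27l was lower, at -0.91 (edgeR adjusted p = 0.037), with 0, 1 and 7 UMIs in thinned cells, and stood at 0.10 when the library size was that of all UMIs. Another fit classed cells by hormone share alone, without the marker rule. It also raised the limits to 40% insulin for beta cells and 20% Gcg for alpha cells. There edgeR called 0 of 80 higher and 4 lower, beside 17.5% of all genes higher and 15% lower. An unadjusted p under 0.05 was reached by 12 of the 80, beside 3753 of all 8809 genes, and the members' median was 0.01. The wider non-endocrine class of that fit also takes cells with more endocrine than non-endocrine marker UMIs.

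**Figure D4:**
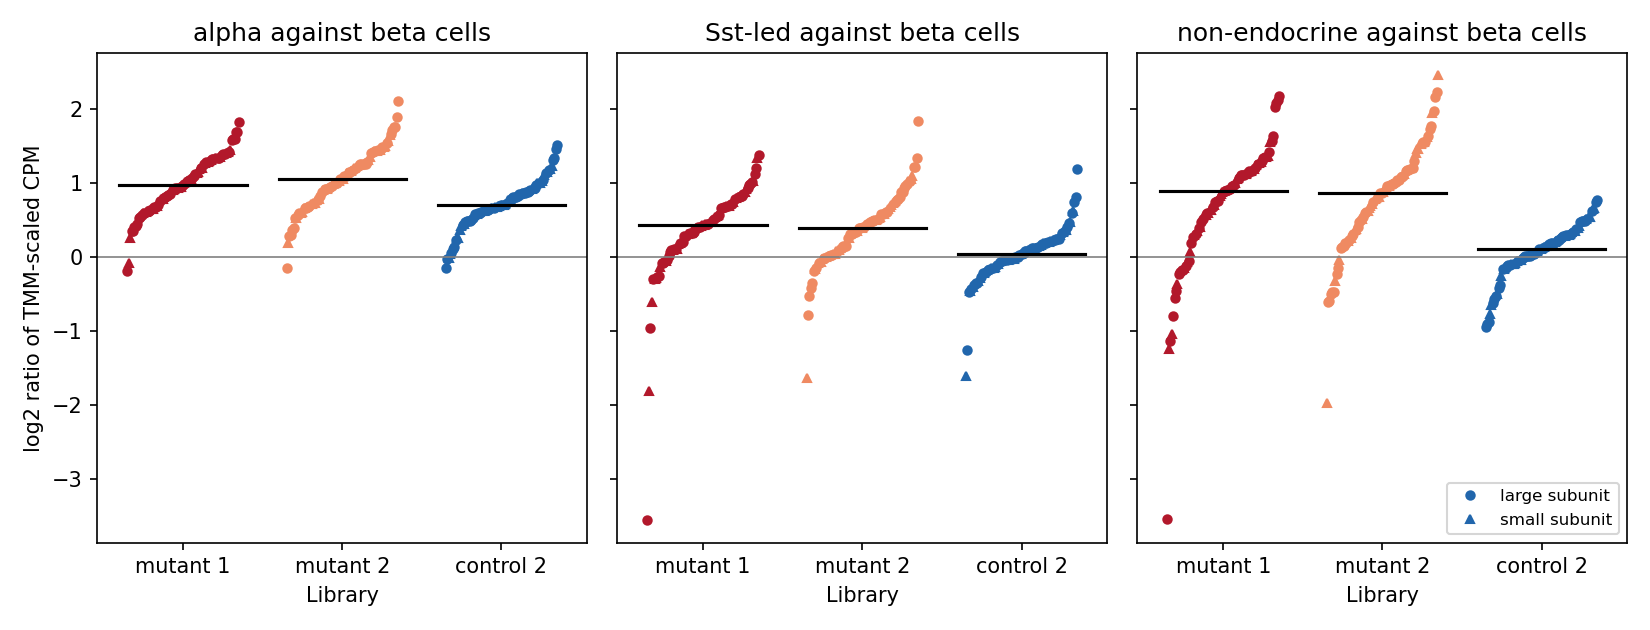
Log2 ratio of alpha, Sst-led and non-endocrine cells to beta cells of the same library, on TMM-scaled CPM, for the 80 members tested; circles are large and triangles small subunit genes, sorted within each library, and black lines are medians. The alpha medians are 0.98, 1.06 and 0.70. Those of Sst-led and non-endocrine cells lie near 0 only in control 2, at 0.04 and 0.12, from sums of all UMIs without matching of depth.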

How the data were processed

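The authors deposited raw UMI counts per gene and barcode for the libraries used; per the labels, libraries followed the PIPseq protocol on a NovaSeq 6000, and the submitters' processing notes name GRCm39 and Seurat. The methods of the study name DropEst; aligner and annotation are not given in the sources used here. Cells with at least 500 UMIs, at least 100 genes and at most 10% mitochondrial UMIs were kept. Libraries held 8448466, 9013499 and 36985253 UMIs (mutant 1, mutant 2, control 2). Replicates are the labelled libraries, each from pooled mice. With the library as block, p-values measure only the spread of class differences between these libraries. The main fit estimated it over beta, alpha, non-endocrine and 10% rule Sst cells together, the last with 3, 4 and 18 cells. For the Sst-led test those cells took the place of the 10% rule cells.

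Library ratios used beta cells thinned to 1000 UMIs, TMM CPM, prior count 1, a mean of at least 20 CPM and a limit of 0.5 on the log2 scale. Class tests used edgeR 4.0.16 (quasi-likelihood, filterByExpr, TMM, library as block, Benjamini-Hochberg over all genes, 0.05) in R 4.3.3; DESeq2 1.42.0 was an alternative. The edgeR step was tested on simulated data for alpha against beta cells. It recovered 26 of 67 changes of 2-fold and 68 of 69 of 4-fold, and called 1 of 4390 unchanged genes. The simulation gave all genes the same spread and every library the same class changes. It therefore does not give the error rate where class changes differ between libraries. Intervals are exact (95%).

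The members, gene lists and rules were chosen with earlier results of these data known. Named were the 5 lowest and 5 highest ratios at 50 CPM or more (ranked by the mutant ratio nearer to 0), the 5 largest and 5 smallest passing changes per class, the P-stalk, Rps27a, Rpl5, Rpl11, Rps6, Rpsa, Rpl41, Rpl21, Rpl23a and paralog pairs, of which Rps4l is not listed. Rpl29, Rps10 and Rps15 outside these lists were named after their values were seen. Some genes that these rules pick are not reported here. Gene models came from GENCODE vM21 and promoters from RefSeq (both GRCm38, another build than the submitters' GRCm39), and were used for sequence only.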

Additional observations from a re-analysis of the deposited data

Results flagged for a closer look

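Effects that pointed opposite ways in 2 groups were looked for among the named members; none of the differences was tested. In thinned cells Rpl3 was below -0.5 in both mutant libraries in beta cells and above 0.5 in both in alpha cells. The mean log2 ratio to control 2 was 1.37 in alpha cells, where control 2 gave 14 UMIs of this gene. Without thinning no member exceeded 0.73 and 0.68 in alpha cells.

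In the other cases the class differed from beta cells one way in both mutant libraries and the other way in control 2. These differences came from sums of all UMIs without matching of depth, and beta cells were deeper in every library. In control 2 their median was 16249 UMIs, against 6589 in alpha, 5112 in Sst-led and 4899 in non-endocrine cells. Whether the signs hold at equal depth was not tested. Rplp0 in alpha cells was higher by a mean of 0.96 on the log2 scale in the mutant libraries and stood at -0.14 in control 2. In Sst-led cells the mutant means were 0.67 for Rps27a, 0.97 for Rpl10a and 0.67 for Rps16, and control 2 had -0.15 for Rpl10a and -0.04 for Rps16. In non-endocrine cells they were 0.95 for Rps27a and 1.19 for Rpl26, and Rpl26 stood at -0.16 in control 2.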

How the results depend on the processing

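No paired analysis was possible because the mutant and control groups share only replicate number 2 among the libraries with counts. The mean of the 2 library medians in beta cells, -1.29, became -1.54 without thinning, -0.56 in cells of 3000 to 6000 UMIs and -0.97 with CPM of all UMIs. The other settings, among them 500 UMIs per cell, DESeq2 size factors, other prior counts, no cell filter and a 40% insulin limit, gave -1.36 to -1.20, and 1 mutant library alone -1.36 to -1.21. The count of 58 lower members ran from 39 to 68 over these settings and from 59 to 60 with 1 mutant library. The background of all genes moved as well. By the same limit 1045 of 4897 genes were lower in both mutant libraries in the main setting. Without thinning, which gave the 68, 1540 of 4739 genes were lower. In cells of 3000 to 6000 UMIs, which gave the 39, 761 of 5012 genes were lower. The background with 1 mutant library is not given here. Relative to the medians of all genes, the members' medians without thinning were -1.38 in mutant 1 and -1.29 in mutant 2. In cells of 3000 to 6000 UMIs they were -0.76 and -0.72. With CPM of all UMIs they were -1.35 and -1.23, against -1.42 and -1.22 in the main setting. The large-minus-small difference of -0.09 lay between -0.226 and 0.0448 with 1 mutant library.

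Calls of higher members in alpha cells, 56, were 15 without a filter on low counts, 0 without the library block, and 6 to 77 with a library left out. In Sst-led cells, 15 became 33 with depth-matched beta cells, 9 by DESeq2, 77 with library sizes of all UMIs, 26 without hormone and mitochondrial genes, 0 without the filter and 0 without the block, and 0 to 34 with a library left out. In non-endocrine cells, 27 became 48 in thinned cells, 58 by DESeq2, 75 and 42 with those library sizes, 0 without the filter, 2 without the block, 0 by hormone share alone, and 2 to 57 with a library left out. Under the 10% Sst rule, 1 call became 3 in thinned cells, 2 by DESeq2, 65 and 13 with those library sizes, 0 without the filter or the block, and 0 with any library left out. Its median, 0.13, turned to -0.49 without the filter and -0.15 without control 2. The Sst-led median turned to -0.0059 without the filter, and Rps27l in non-endocrine cells to 0.10 with library sizes of all UMIs. The share of all genes called higher moved too: with library sizes of all UMIs it was 38.7%, 51.2%, 55.2% and 17.4% in alpha, Sst-led, non-endocrine and 10% rule Sst cells, and by DESeq2 9.4% in Sst-led and 31.5% in non-endocrine cells. In the order of the 4 classes it was 4.14%, 4.66%, 22% and 1.2% without the block. Without the filter it was 2.29%, 1.96%, 9.06% and 0.456%. With a library left out it ran from 4.11% to 20.3% in alpha, 5.01% to 8.69% in Sst-led and 20.9% to 24.2% in non-endocrine cells. In 10% rule Sst cells it was 2.42% after thinning, 3.17% by DESeq2 and 0.348% to 1.67% with a library left out. Without hormone and mitochondrial genes in the library size it was 13%, 28.5% and 4.54% in Sst-led, non-endocrine and 10% rule Sst cells. The causes were not tested. With a 20% limit no delta cells remained in some libraries, so that fit gave no value.

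Control 2 held only 33 alpha, 37 Sst-led and 61 non-endocrine cells.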
